A study of Mus musculus with 6 samples.

Results

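The genes described here are 39 genes of endothelial identity, the set of adhesion molecules, receptors and transcription factors by which cells that line blood and lymph vessels are recognised. They were chosen by gene symbol, and all 39 were found among the 34714 rows of the kidney count table. All 39 also passed the filter on low counts, which left 18927 genes for testing. The libraries are bulk RNA sequencing of mouse kidneys after unilateral ureteral obstruction (UUO), an operation in which the left ureter is tied and the kidney scars behind the block. One group is 3 libraries from wild-type C57BL/6J mice. The other is 3 libraries from miR-92b-/- mice, a purchased C57BL/6JGpt strain that lacks Mir92b in the whole body. All mice were male and 8 weeks old at surgery, and kidneys were collected at 10 days. The table holds no microRNA, so the deletion itself was not checked. Sham-operated or unoperated kidneys were not analysed here, and the treatment protocol calls the ligated kidneys nonfibrotic controls although the treatment label of all 6 gives UUO surgery. The deletion is global, so a difference in endothelial genes cannot be assigned to the endothelium itself. The groups also carry different substrain names, C57BL/6J and C57BL/6JGpt, so the deletion and a difference of substrain cannot be told apart. Nothing in the labels ties each library to its own animal, and p-values here measure the spread between these libraries, which may be technical.

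Endothelial cells hold together through VE-cadherin and PECAM1, and their identity is kept by ETS and SOX transcription factors. The kidney holds several kinds of them: the fenestrated capillaries of the glomerulus, the peritubular capillaries around the tubules, the arteries and arterioles, the veins, and a few lymphatics. After obstruction, loss of peritubular capillaries is a known companion of scarring. The comparison asks whether these genes differ between obstructed kidneys of the wild-type and the miR-92b-/- group, which also differ in substrain name.

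The microRNAs of the miR-92 family are of interest for this set because Klf2, Klf4 and other endothelial genes have been named as targets of the family. The mature sequences below (RefSeq, GRCm38.p6) show why its members are treated together. The capitals mark the seed, bases 2 to 8, which is identical in all 6.
miR-92b-3p: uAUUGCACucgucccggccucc
miR-92a-3p: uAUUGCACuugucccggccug
miR-25-3p: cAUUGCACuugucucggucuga
miR-32-5p: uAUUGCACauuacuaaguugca
miR-363-3p: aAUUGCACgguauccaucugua
miR-367-3p: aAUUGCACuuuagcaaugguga
The mature miR-92b-3p lies at chr3:89227126-89227147 on the minus strand, and the other 5 microRNAs come from other genes.

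The longest annotated 3' UTR of each member (GENCODE M21, GRCm38) was searched on the sense strand for the 8mer GTGCAATA, its first 7 bases GTGCAAT (7mer-m8) and its last 7 bases TGCAATA (7mer-A1), each site being counted once under its longest form. Of the 39 members, 8 held a site of 7 or 8 bases (20.5%), against 12.9% of the 20183 rows with a 3' UTR, but the median 3' UTR was also longer, at 1513 nt against 984 nt. The 8mer stood in 2 members, Klf2 and Klf4 (5.13%, against 2.32% of all rows). The sites of these 2, and those of the receptor S1pr1 and the peptide Apln, are shown with their surroundings, the site in capitals.
Klf2, 8mer: gttttcaaaatgGTGCAATAattgac
Klf4, 8mer: gtggtttcagatGTGCAATAatttgt
Klf4, 7mer-A1: gtgtttcgatgaTGCAATAcacacg
S1pr1, 7mer-m8: ggtgttcagtgaGTGCAATtaagcc
Apln, 7mer-m8: gagcgccgagatGTGCAATgagact
The Klf2 site lies at chr8:72321133-72321140 (plus strand), the Klf4 sites at chr4:55527367-55527374 and chr4:55527686-55527692, the S1pr1 site at chr3:115710551-115710557 and the Apln site at chrX:48027266-48027272, all 4 on the minus strand. Clec14a, Ptprb, Fli1 and Prox1 held the other sites. The 8 members with a site had fold changes of knockout over wild type with a median of 0.05 on the log2 scale, 4 above 0 and 4 below, while the 31 without a site had a median of 0.22. None of the 8 passed the test, and the smallest adjusted p among them was 0.672 (edgeR).

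Because most members varied together between libraries, their promoters were searched for CAGGAA, a single form of the sites bound by ETS factors such as the members Erg, Fli1 and Ets1. RefSeq start sites were found for 22 members, with 28 windows of 250 bases before the start. The letters CAGGAA, on either strand, stood in 10 of the 28 windows (35.7%), against 25.7% of the 32851 windows of all genes. Of the 3 windows with 2 matches, that of Emcn (chr3:137340828-137341077, plus strand, GRCm38.p6) is shown with the matches in capitals; both are on the other strand and read TTCCTG.
Emcn: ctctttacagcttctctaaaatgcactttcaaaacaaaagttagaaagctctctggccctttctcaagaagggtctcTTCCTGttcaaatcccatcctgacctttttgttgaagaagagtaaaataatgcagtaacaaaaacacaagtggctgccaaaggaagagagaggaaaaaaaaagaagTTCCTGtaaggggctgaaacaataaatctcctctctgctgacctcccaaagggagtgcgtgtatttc
A match is a description of the letters only, and no binding was measured. Other forms of the ETS site were not counted, so unmarked stretches and windows without a match may still hold one.

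Library totals ran from 38738204 to 51932509 counts. Prox1 and Tal1 were among the members with the fewest counts, and Tal1 had 128 in knockout replicate 1. Values are given in CPM, counts scaled to library size with TMM factors. All 10 of the widely used endothelial markers were present (Pecam1, Cdh5, Tie1, Egfl7, Esam, Erg, Robo4, Mmrn2, Clec14a and Icam2), and their summed level was 307 to 591 CPM in the wild type and 273 to 752 CPM in the knockout. The libraries within a group differed widely, and wild-type replicate 1 and knockout replicate 3 stood apart from the others of their group. In bulk tissue, fewer endothelial cells and less endothelial RNA per cell cannot be told apart.

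Most endothelial genes differed more between libraries of a group than between genotypes. For 34 of the 39 the log2 fold change between genotypes was smaller than the SD within groups on the log2 CPM scale, and the other 5 were Ephb4, Pdpn, Sox17, Ets1 and Ehd3. The share of all genes tested for which this holds was not counted, so the 34 are not read as particular to endothelial genes. The summed level of the 39 members was 2283, 1519 and 1472 CPM in wild-type replicates 1 to 3 and 1386, 1951 and 2832 CPM in knockout replicates 1 to 3. Knockout replicate 3 was thus the highest of all and knockout replicate 1 the lowest, with the wild-type libraries between them. Wild-type replicate 1 was the highest wild-type library and knockout replicate 3 the highest knockout library for 31 of 39 members (79.5%), against 20.0% of all genes tested. Knockout replicate 3 was the highest of the 6 for 26 members, and knockout replicate 1 the lowest for 22. The pattern held for 16 of 17 pan-endothelial genes, 6 of 8 transcription factors, 3 of 4 capillary genes and 5 of 5 arterial genes, but for 1 of 3 venous and 0 of 2 lymphatic genes. The spread within groups had a median SD of 0.61 on the log2 CPM scale over the members and 0.28 over all genes tested, and 34 of the 39 lay above the latter. The ratio of the highest to the lowest library ran from 1.38 (Sema3g) to 5.71 (Aplnr), with a median of 2.54.

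**Figure D1:**
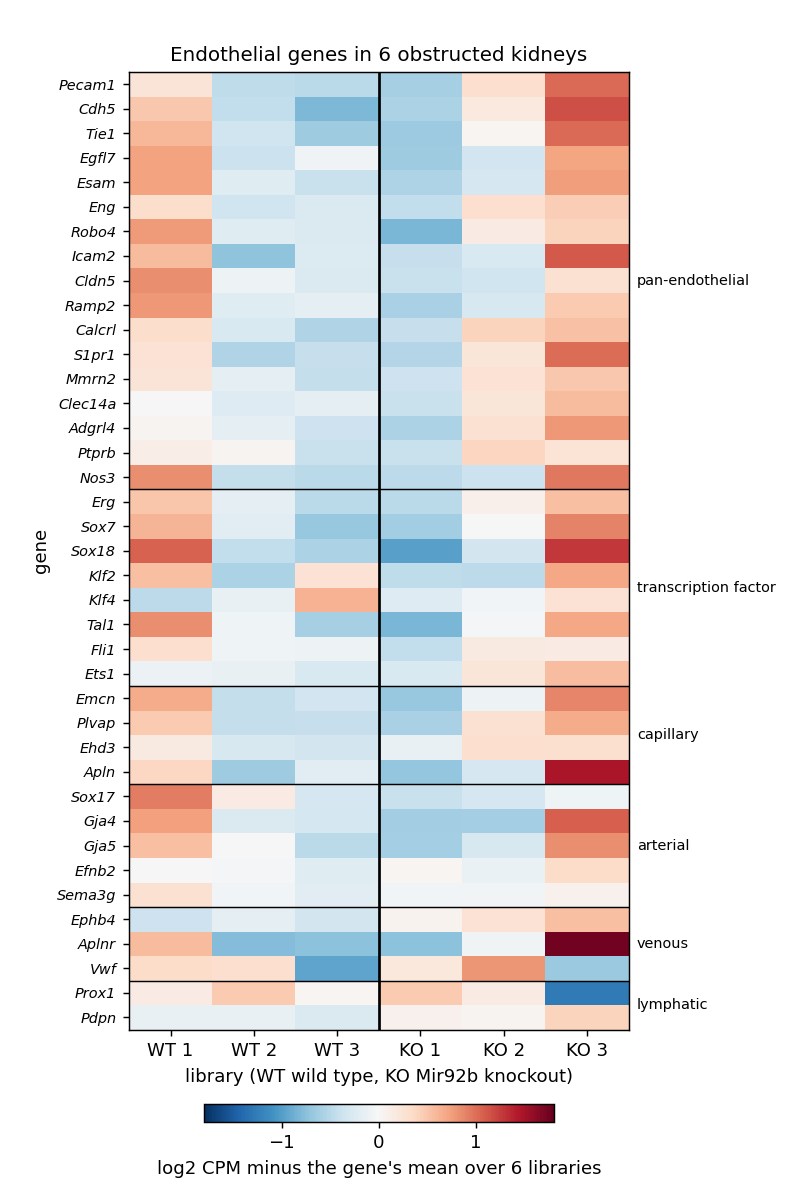
Each row is 1 of the 39 endothelial genes, ordered by class, and each column is 1 library (WT wild type, KO knockout); the colour is log2 CPM minus the gene's own mean over the 6 libraries. Most rows are red in WT 1 and KO 3 and blue in KO 1, while Klf4, Vwf, Prox1, Ephb4 and Pdpn do not follow that order in full. Of these, Klf4, Ephb4 and Pdpn still have their highest knockout value in KO 3.

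No endothelial gene passed the test between the genotypes. At an adjusted p under 0.05, 0 of the 39 were called by edgeR, as were 0% of all genes tested. The smallest adjusted p of a member was 0.627. DESeq2 and limma-voom also called 0 of the 39, against 0.328% and 0.0159% of all genes. At an unadjusted p under 0.05 there were 2 members, Ephb4 and Pdpn, against 7.9% of all genes. These 2 were also the only members whose 3 knockout libraries all lay above the 3 wild-type libraries, and 0 members had all knockout libraries below. Groups that did not overlap made up 16.1% of all genes tested, with 8.95% higher and 7.2% lower in the knockout.

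The members' fold changes had a median of 0.17 on the log2 scale, and those of all genes tested a median of -0.02. The fold change was above 0 for 27 of 39 members, against 47.7% of all genes. Both figures rested on single libraries. Without knockout replicate 3 the median was -0.18, with 15 members above 0, and without wild-type replicate 1 it was 0.43, with 36 above 0. With both libraries numbered 3 left out it was -0.25, with 8 above 0. The sign was the same under every alternative and every left-out library for 7 members: Calcrl, Clec14a, Ets1, Ehd3, Ephb4 and Pdpn above 0, and Sox17 below 0. With both libraries numbered 3 left out, however, Calcrl and Clec14a were close to 0, at 0.0025 and 0.053. The share of all genes tested that kept their sign was not counted.

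**Figure D2:**
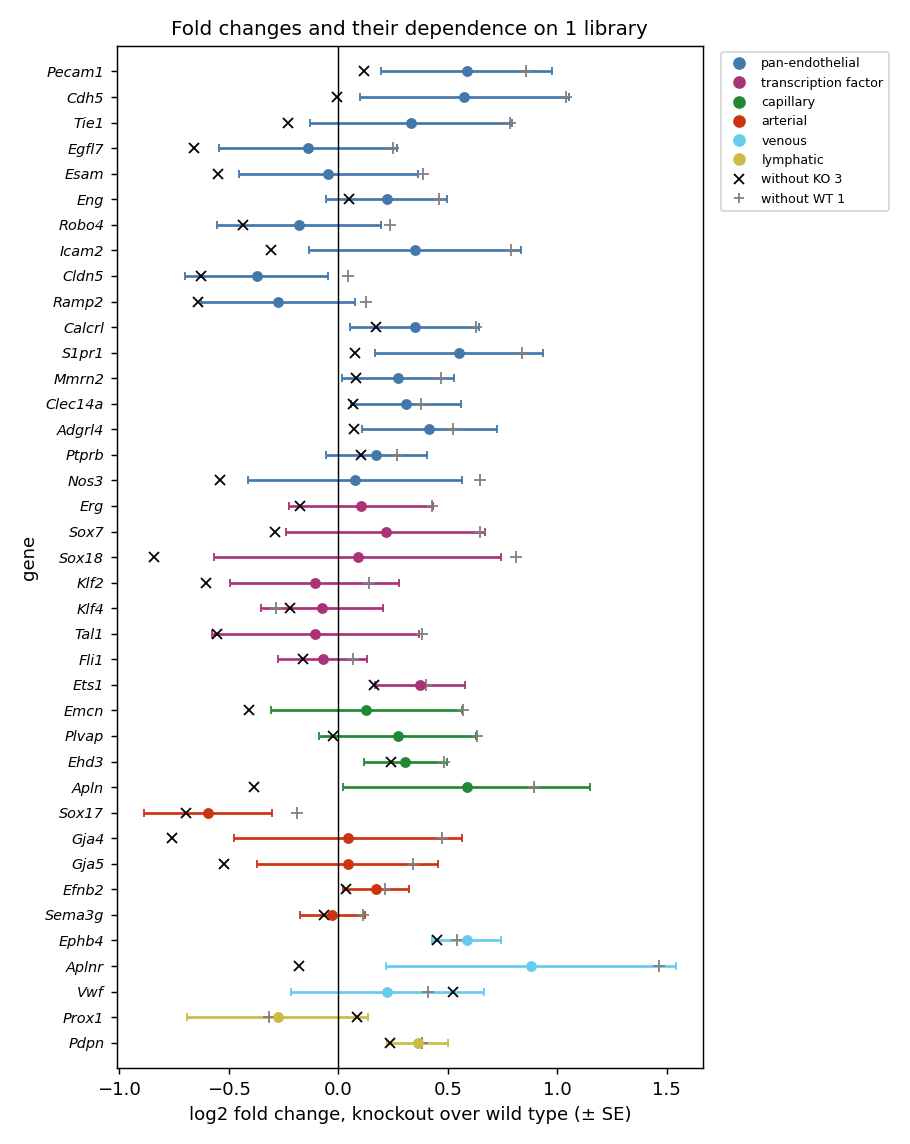
Circles give each gene's log2 fold change, knockout over wild type, with its SE (n = 3 per group), coloured by class; crosses give the value without knockout replicate 3 and plus signs that without wild-type replicate 1. For many genes the 2 marks lie on opposite sides of 0, whereas Ephb4 stays at 0.45 or above and Sox17 at -0.19 or below.

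Among the junction and adhesion genes, Pecam1, the platelet-endothelial adhesion molecule, was at 99.6, 61.8 and 60.6 CPM in the wild type and 56.0, 104 and 173 CPM in the knockout. Cdh5, which encodes VE-cadherin, was at 84.7, 44.3 and 34.3 CPM and at 40.6, 67.9 and 135 CPM. The groups overlapped for both, and the spread was wider in the knockout. The log2 fold changes were 0.59 ± 0.39 (SE, n = 3 per group) and 0.57 ± 0.48, and without knockout replicate 3 they were 0.12 and -0.00465. Esam, a tight junction adhesion molecule, Cldn5, the endothelial claudin, and Icam2, a ligand of leukocyte integrins, had log2 fold changes of -0.05, -0.37 and 0.35. Icam2 went from 5.77 to 14.2 CPM among the wild-type libraries and from 7.14 to 20.6 CPM among the knockout libraries. Eng, a coreceptor for TGF-β family ligands, was the pan-endothelial gene with the highest level per length, at 43.2 ± 11.4 CPM per kilobase of merged exons (SD, n = 3) in the wild type and 50.4 ± 15.1 in the knockout. Its log2 fold change was 0.22 ± 0.27.

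Receptors and signalling proteins of the endothelial surface mostly followed the same order of libraries. Tie1, the orphan partner of the angiopoietin receptor, was at 91.4, 47.5 and 38.9 CPM in the wild type and 38.6, 62.4 and 123 CPM in the knockout. Ptprb, the phosphatase VE-PTP, which restrains that receptor, was highest in knockout replicate 2 (99.6 CPM) and varied less, with a ratio of highest to lowest library of 1.73. S1pr1, the receptor for sphingosine-1-phosphate that steadies the vessel wall, was at 32.2, 18.5 and 20.2 CPM and at 18.6, 31.2 and 53.8 CPM. Its groups overlapped, with a log2 fold change of 0.55 ± 0.38 that was 0.08 without knockout replicate 3 and -0.02 with both libraries numbered 3 left out. Nos3, the endothelial nitric oxide synthase, was at 38.7, 16.1 and 15.4 CPM and at 15.6, 16.5 and 41.8 CPM. Here 1 library of each group stood more than 20 CPM above the other 2, and the log2 fold change was 0.08 ± 0.49 (-0.54 without knockout replicate 3).

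The adrenomedullin receptor is built from 2 of the members, Calcrl and its partner Ramp2. Both were highest in replicate 1 of the wild type and replicate 3 of the knockout, and their log2 fold changes had opposite signs, a difference that was not tested. Calcrl was at 49.9, 33.0 and 27.5 CPM in the wild type and at 30.0, 52.9 and 57.6 CPM in the knockout, for a log2 fold change of 0.35 ± 0.30. Ramp2 was at 49.8, 24.8 and 25.9 CPM and at 19.3, 23.6 and 40.1 CPM, for a log2 fold change of -0.28 ± 0.35. In wild-type replicate 1 the 2 were level in CPM, and in knockout replicate 2 Calcrl was at 52.9 CPM and Ramp2 at 23.6 CPM. The other pan-endothelial members were Egfl7 (a secreted vascular protein, log2 fold change -0.14), Robo4 (a guidance receptor, -0.18), Mmrn2 (a matrix protein of vessels, 0.27), Clec14a (a lectin that binds it, 0.31) and Adgrl4 (an adhesion receptor, 0.42). None was called, and their SE ran from 0.25 to 0.41.

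Of the transcription factors, Sox18 varied most between libraries. It and Sox7 are SOX factors of the F group that act in early vessel formation. Sox18 was at 41.4, 14.6 and 13.3 CPM in the wild type and 10.1, 15.7 and 47.9 CPM in the knockout, and Sox7 at 10.3, 5.85 and 4.19 CPM and at 4.36, 6.72 and 12.5 CPM. Sox18 thus differed 4.76-fold between knockout replicates 3 and 1. The log2 fold changes were 0.09 ± 0.65 and 0.22 ± 0.46, and both turned below 0 without knockout replicate 3 (-0.84 and -0.29). The ETS factors Erg, Fli1 and Ets1 were steadier, with ratios of highest to lowest library of 2.05, 1.67 and 1.77. Ets1, which many lymphocytes and stromal cells also make, was at 94.9, 93.6 and 84.9 CPM and at 84.7, 119 and 150 CPM, with a log2 fold change of 0.37 ± 0.21. Tal1, a factor shared by blood and endothelial lineages, was the lowest of the 8 in CPM, at 2.92 to 9.17 CPM over all libraries.

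Klf2 and Klf4, which blood flow induces in endothelium and which carry the 8mer sites shown above, showed no difference between the genotypes larger than the spread of the libraries. Klf2 (chr8:72319033-72321656, GRCm38) was at 63.4, 29.4 and 52.1 CPM in the wild type and at 31.9, 31.5 and 70.9 CPM in the knockout, for a log2 fold change of -0.11 ± 0.39 (edgeR adjusted p = 0.935). Klf4 (chr4:55527143-55532466) was at 35.6, 45.3 and 76.2 CPM and at 41.9, 47.9 and 59.5 CPM, for a log2 fold change of -0.07 ± 0.28 (edgeR adjusted p = 0.938). Without knockout replicate 3 the values were -0.61 and -0.22, and without wild-type replicate 3 they were -0.05 and 0.30. The groups overlapped for both, and the sign was above 0 for both with limma-voom (0.06 and 0.02). Klf4 was the only member that was highest in wild-type replicate 3. That library also had the highest summed level of 8 immediate early genes (Fos, Fosb, Jun, Junb, Egr1, Ier2, Atf3 and Dusp1), which handling and stress induce within minutes: 2523 CPM, against 896 and 981 CPM in the other wild-type libraries and 521 to 606 CPM in the knockout. All 8 had a log2 fold change below 0 with the settings used here, and for 7 of them all knockout libraries were below all wild-type libraries, against 7.2% of all genes tested. By edgeR 0 of the 8 were called, with 7 at an unadjusted p under 0.05 (7.9% of all genes), and by DESeq2 3 were (0.328% of all genes). The part of this difference in the values of Klf2 and Klf4, which are themselves quickly induced, was not tested.

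**Figure D3:**
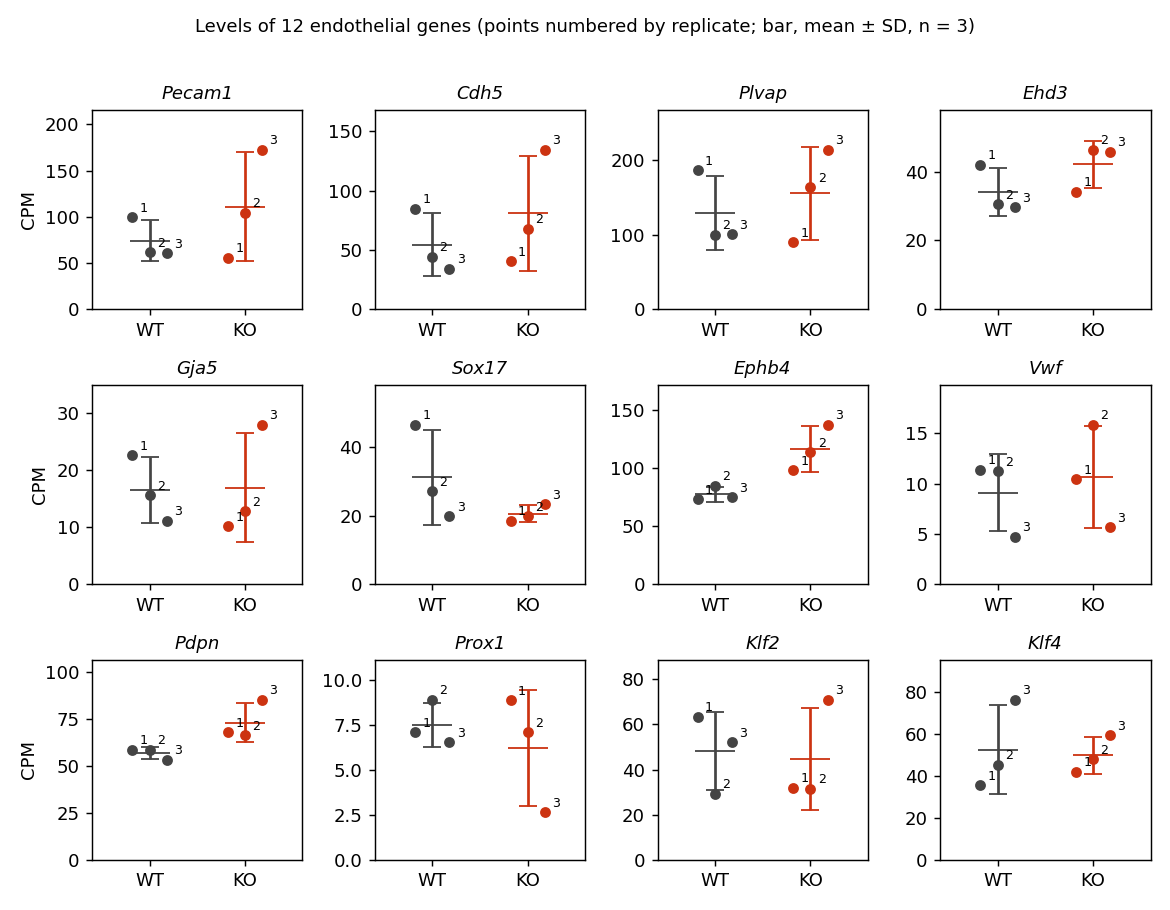
Each panel shows 1 gene in CPM, with points numbered by replicate and a bar at the mean with the SD of 3 libraries. In Pecam1, Cdh5, Plvap and Gja5 the points labelled 1 of the wild type and 3 of the knockout are the highest of their group, in Ephb4 and Pdpn the 2 groups do not overlap, and in Vwf and Prox1 knockout replicate 3 is the lowest of its group.

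Of the capillary genes, all 4 had a log2 fold change above 0, but 1 of the 4 without knockout replicate 3. Plvap, the diaphragm protein of fenestrated peritubular capillaries, had the highest level per length of all 39 members, at 64.9 ± 25.0 CPM per kilobase in the wild type and 78.3 ± 31.3 in the knockout (SD, n = 3). It was at 186, 99.8 and 101 CPM and at 89.9, 163 and 214 CPM, and Emcn, a sialomucin of capillaries and veins, at 111, 51.9 and 55.2 CPM and at 43.7, 65.6 and 129 CPM. Both were highest in wild-type replicate 1 and knockout replicate 3. Ehd3, a membrane trafficking protein that marks glomerular endothelium, was at 42.0, 30.5 and 29.7 CPM and at 34.2, 46.4 and 45.8 CPM, a ratio of highest to lowest library of 1.56 against 2.38 for Plvap. Its log2 fold change was 0.31 ± 0.19 (edgeR adjusted p = 0.653), and 0.24 without knockout replicate 3, where that of Plvap was -0.03. Apln, the apelin peptide of sprouting tips, was at 12.7, 6.27 and 8.51 CPM and at 6.07, 7.92 and 27.2 CPM, and its log2 fold change of 0.59 ± 0.56 was -0.39 without knockout replicate 3.

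Fold changes of the arterial genes had a median of 0.04 on the log2 scale (-0.52 without knockout replicate 3), and 2 of the 5 were below 0. Sox17 (chr1:4490931-4497354), a SOX factor needed for arterial identity, had the lowest log2 fold change of all members, at -0.60 ± 0.29 (edgeR adjusted p = 0.628). It was at 46.3, 27.1 and 19.7 CPM in the wild type and at 18.5, 19.8 and 23.2 CPM in the knockout, so the groups overlapped and the wild type was the more variable. The value was -0.19 without wild-type replicate 1 and -0.69 without knockout replicate 3. Gja4 and Gja5, the arterial connexins, were highest in wild-type replicate 1 and knockout replicate 3 of their groups, with Gja5 at 22.7, 15.6 and 11.2 CPM and at 10.1, 12.8 and 27.9 CPM. Their log2 fold changes of 0.05 and 0.04 were below 0 with upper-quartile factors and with library size alone, and were -0.76 and -0.52 without knockout replicate 3. Both connexins also occur in renin-producing cells, and the renin genes Ren1 and Akr1b7 had their highest sums in the same 2 libraries, 575 CPM in wild-type replicate 1 and 974 CPM in knockout replicate 3, against 20.3 to 149 CPM in the other 4. The part of renin cells in the connexin values was not tested. Efnb2, the arterial ephrin ligand, and Sema3g, a semaphorin of arteries, were among the steadiest members, at 78.5 to 114 CPM and 68.9 to 95.0 CPM over all libraries. Efnb2 is also made by tubule and mural cells.

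The venous genes gave the member with the smallest p. Ephb4 (chr5:137350109-137378669), the receptor tyrosine kinase that answers to ephrin-B2 and marks veins, was at 73.2, 85.0 and 75.0 CPM in the wild type and at 98.5, 114 and 138 CPM in the knockout. Each knockout library was above every wild-type library. The means were 77.8 ± 6.36 and 117 ± 19.7 CPM (SD, n = 3), a log2 fold change of 0.59 ± 0.16, with an unadjusted p of 0.00611 and an edgeR adjusted p of 0.627 (0.211 to 0.971 over the alternatives, the lowest with DESeq2). The value lay between 0.43 and 0.70 under all alternatives and left-out libraries. Its ligand gene Efnb2 had a log2 fold change of 0.17 ± 0.15, with overlapping groups. Ephb4 was lowest in wild-type replicate 1, where most members had their highest wild-type value, so it departed from their order in the wild type. Within the knockout it rose from replicate 1 to replicate 3, an order that 31 of the 39 members had (79.5%, against 21.6% of all genes tested). The venous members Aplnr and Vwf had overlapping groups. The part of cells other than veins in the Ephb4 values was not tested.

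Aplnr, the apelin receptor of veins and capillaries, had the widest range of all members, at 55.1, 21.7 and 22.3 CPM in the wild type and 22.4, 35.8 and 124 CPM in the knockout. Knockout replicate 3 alone carried its log2 fold change of 0.88 ± 0.66, which was -0.18 without that library. The ligand Apln was also highest there. Vwf, the von Willebrand factor of large vessels and platelets, departed from the other genes: at 11.4, 11.2 and 4.72 CPM and at 10.4, 15.8 and 5.70 CPM, it was low in knockout replicate 3, where most members were highest. Its log2 fold change was 0.22 ± 0.44, and it was -0.18 without knockout replicate 2 and -0.08 without wild-type replicate 3. The platelet genes Pf4, Itga2b, Gp9 and Ppbp summed to 15.3 to 37.4 CPM in the wild type and 10.4 to 60.9 CPM in the knockout. Pf4, at 38.8 CPM, was the only 1 of the 4 that was highest in knockout replicate 3.

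The lymphatic genes are not specific to lymphatics in kidney, since podocytes also make Pdpn and some tubule cells Prox1. Pdpn (chr4:143267431-143299564), the mucin podoplanin, was at 58.5, 58.6 and 53.3 CPM in the wild type and 67.7, 66.2 and 85.1 CPM in the knockout, without overlap, a log2 fold change of 0.36 ± 0.14. Its unadjusted p was 0.0329 and its edgeR adjusted p was 0.627, with a range of 0.351 to 0.971 over the alternatives. Of other genes that podocytes make, Nphs1, the slit diaphragm protein nephrin, had a log2 fold change of -0.68, with every knockout library below every wild-type library, while Podxl and Synpo had 0.24 and 0.22 with overlap. None of these 3 was called by edgeR, and the part of podocytes in the Pdpn values was not tested. Prox1, the transcription factor that sets lymphatic fate, was at 7.10, 8.90 and 6.53 CPM and at 8.90, 7.09 and 2.64 CPM. The low value was that of knockout replicate 3, and without it the log2 fold change of -0.28 ± 0.41 was 0.09. Of a list of 5 other lymphatic genes, 0 were called by edgeR or DESeq2 and 0 had an unadjusted p under 0.05. Of the 5, 2 were highest in knockout replicate 3, the hyaluronan receptor Lyve1 and the VEGF-C receptor Flt4. Lyve1 was at 0.89 to 2.51 CPM in the wild type and 1.35 to 5.38 CPM in the knockout, and its log2 fold change of 0.79 was -0.12 without knockout replicate 3. The median fold change of the 5 was 0.19 on the log2 scale.

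To see how the members stood within the endothelial signal of each library, their log2 CPM was taken relative to the mean log2 CPM of the 10 endothelial markers, a quantity chosen after the data were seen. That mean was 5.54, 4.72 and 4.66 in the wild type and 4.50, 5.09 and 5.83 in the knockout, a range of 1.33 on the log2 scale. The median SD within groups of the 29 members outside the marker set went from 0.55 to 0.37, and for 18 of the 29 the spread became smaller. Over all genes tested that median went from 0.28 to 0.65, and the spread became smaller for 2105 of 18927. Plvap and Emcn were then nearly level over all libraries, at 1.91 to 2.26 and 0.95 to 1.26 above the marker mean. Vwf and Prox1 spread more widely, at -3.31 to -1.10 and -4.41 to -1.34.

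Relative to the markers, 2 of the 29 members had groups without overlap, 1 higher and 1 lower in the knockout. The share of all genes tested was 2.49% on this scale (0.56% higher and 1.93% lower) and 16.1% in CPM. Taking values relative to the markers widened the spread of most genes, so the 2.49% is not an even measure for the members and no excess is read from it. Some markers also separated by group from the mean they are part of. Pecam1 was higher in the knockout without overlap, with a difference of 0.31. Egfl7, Esam and Robo4 were lower without overlap, with differences of -0.35, -0.24 and -0.36. Separation on this scale is thus not particular to the members outside the marker set. S1pr1 was at -0.53, -0.51 and -0.32 in the wild type and -0.28, -0.12 and -0.08 in the knockout, a difference of 0.29 between the means. The highest wild-type and the lowest knockout value were close to each other. Ramp2 was at 0.10, -0.08 and 0.04 and at -0.23, -0.52 and -0.51, a difference of -0.44. Calcrl, its receptor partner, differed by 0.17 with overlap, at 0.10, 0.33 and 0.12 and at 0.41, 0.64 and 0.02. Sox17 differed by -0.68, with wild-type values of -0.00386, 0.04 and -0.35 and knockout values of -0.29, -0.77 and -1.29, which overlapped. Ephb4, which did not overlap in CPM, overlapped on this scale, with a difference of 0.41 ± 0.50 (SD within groups). No test was made of these differences.

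**Figure D4:**
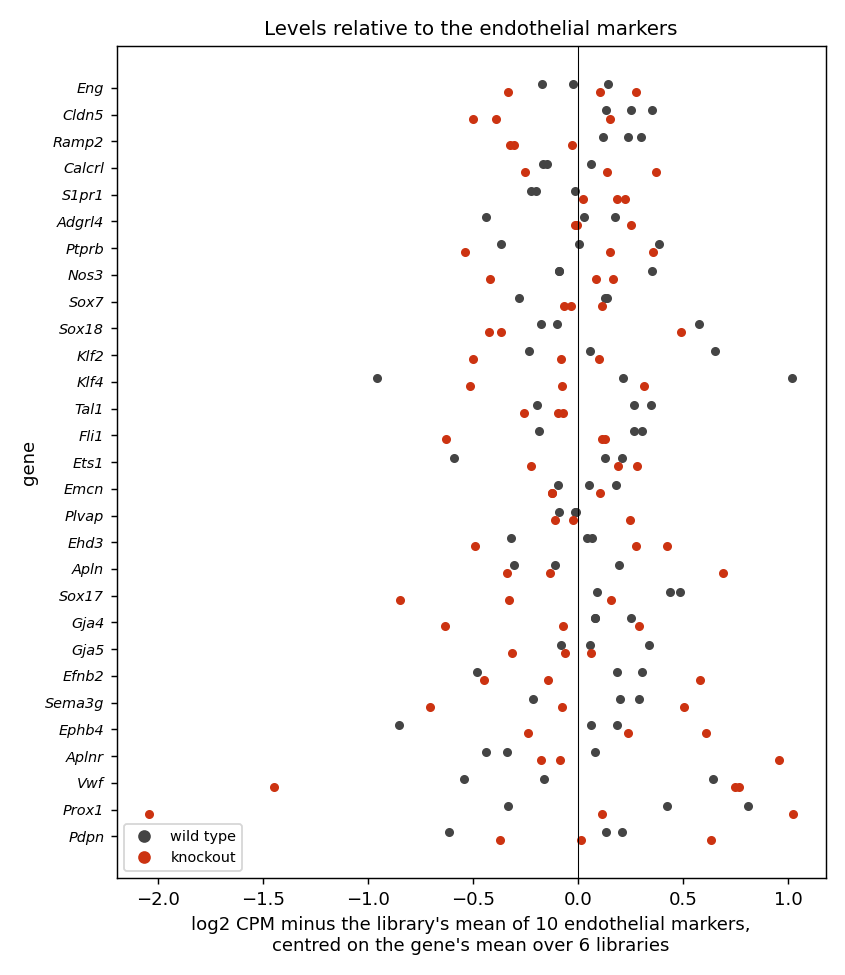
Points show, for the 29 members outside the marker set, log2 CPM minus the library's mean of the 10 endothelial markers, centred on each gene's own mean over 6 libraries; wild-type libraries are grey and knockout libraries red. The groups separate for S1pr1 and Ramp2, and Vwf and Prox1 have 1 knockout library far to the left.

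Other endothelial genes outside the 39 were also mostly highest in wild-type replicate 1 and knockout replicate 3 of their groups. Of the 38 tested of a list of 39, 28 had their highest wild-type value in replicate 1 and their highest knockout value in replicate 3 (73.7%, against 20.0% of all genes tested). Their fold changes had a median of 0.24 on the log2 scale, with 27 above 0 (47.7% of all genes), and of -0.12 without knockout replicate 3. By edgeR 0 were called, and 2 of 38 had an unadjusted p under 0.05, a share below the 7.9% of all genes. DESeq2 called 2 (0.328% of all genes) and limma-voom 0. Unc5b, a netrin receptor of arterial and sprouting endothelium, was at 37.5, 46.3 and 42.5 CPM in the wild type and 63.2, 73.0 and 66.1 CPM in the knockout, for a log2 fold change of 0.68 ± 0.13 (edgeR adjusted p = 0.627, DESeq2 adjusted p = 0.0319). Nrp2, a VEGF-C and semaphorin coreceptor of veins and lymphatics, was at 38.7, 38.1 and 28.4 CPM and at 47.9, 79.0 and 84.7 CPM, for a log2 fold change of 1.01 ± 0.23 (edgeR adjusted p = 0.627, DESeq2 adjusted p = 0.0489). The groups overlapped for neither. The venule gene Ackr1, named after its values were seen, did not pass the filter: it was at 0.119 CPM in knockout replicate 3 and at 0 in the other 5 libraries.

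Markers of some other cell types differed between the same libraries as the endothelial genes, and those of others did not. The summed pericyte markers (Pdgfrb, Rgs5, Cspg4, Kcnj8, Abcc9 and Notch3) were at 451, 405 and 347 CPM in the wild type and 352, 551 and 630 CPM in the knockout. Fibroblast genes (Pdgfra, Col1a1, Col1a2, Dcn and Lum) were at 2131, 1451 and 1040 CPM and at 1431, 2484 and 4221 CPM. Both sums were highest in knockout replicate 3, as were 4 of the 6 pericyte and 4 of the 5 fibroblast genes, and within the wild type in replicate 1. Without Pdgfrb the pericyte sum was 230, 256 and 213 CPM in the wild type, highest in replicate 2, and 212, 300 and 323 CPM in the knockout. Singly, 4 of the 6 pericyte genes had their highest wild-type value in replicate 1. Proximal tubule genes (Slc34a1, Lrp2, Slc5a12, Slc22a6 and Kap) were lowest in knockout replicate 3, at 2071 CPM, and highest in wild-type replicate 3, at 14274 CPM, with 3802 to 6531 CPM in the other 4. Most of that sum was Kap, but all 5 genes were lowest in knockout replicate 3. Macrophage markers (Ptprc, Cd68, Adgre1, Csf1r, Lyz2 and Itgam) did not follow the endothelial order, with 928 to 1101 CPM in the wild type and 1261 to 1495 CPM in the knockout. The separation of the sum needed Lyz2: the other 5 summed to 361, 444 and 419 CPM and to 475, 565 and 412 CPM, which overlap. Singly, 3 of the 6 (Lyz2, Adgre1 and Itgam) had every knockout library above every wild-type library, against 8.95% of all genes tested. By edgeR 0 of the 6 were called. Adipocyte genes (Adipoq, Plin1, Lep and Retn) were highest in knockout replicate 1, at a summed 36.6 CPM, and skeletal muscle genes (Myh4, Myh1, Ckm and Acta1) were at 3.89 to 4.16 CPM in the wild type and 0.258 to 0.456 CPM in the knockout. The muscle genes separated by genotype and not by the endothelial order: for all 4, every knockout library was below every wild-type library, against 7.2% of all genes tested. By edgeR 0 of the 4 were called (0% of all genes), with 4 at an unadjusted p under 0.05 (7.9% of all genes). DESeq2 called 4 (0.328% of all genes) and limma-voom 2 (0.0159%). Erythroid genes (Hbb-bs, Hbb-bt, Hba-a1, Hba-a2 and Alas2) summed to 62.5 to 111 CPM and 94.9 to 130 CPM. The part of the makeup of each tissue piece in the endothelial values was not tested.

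**Figure D5:**
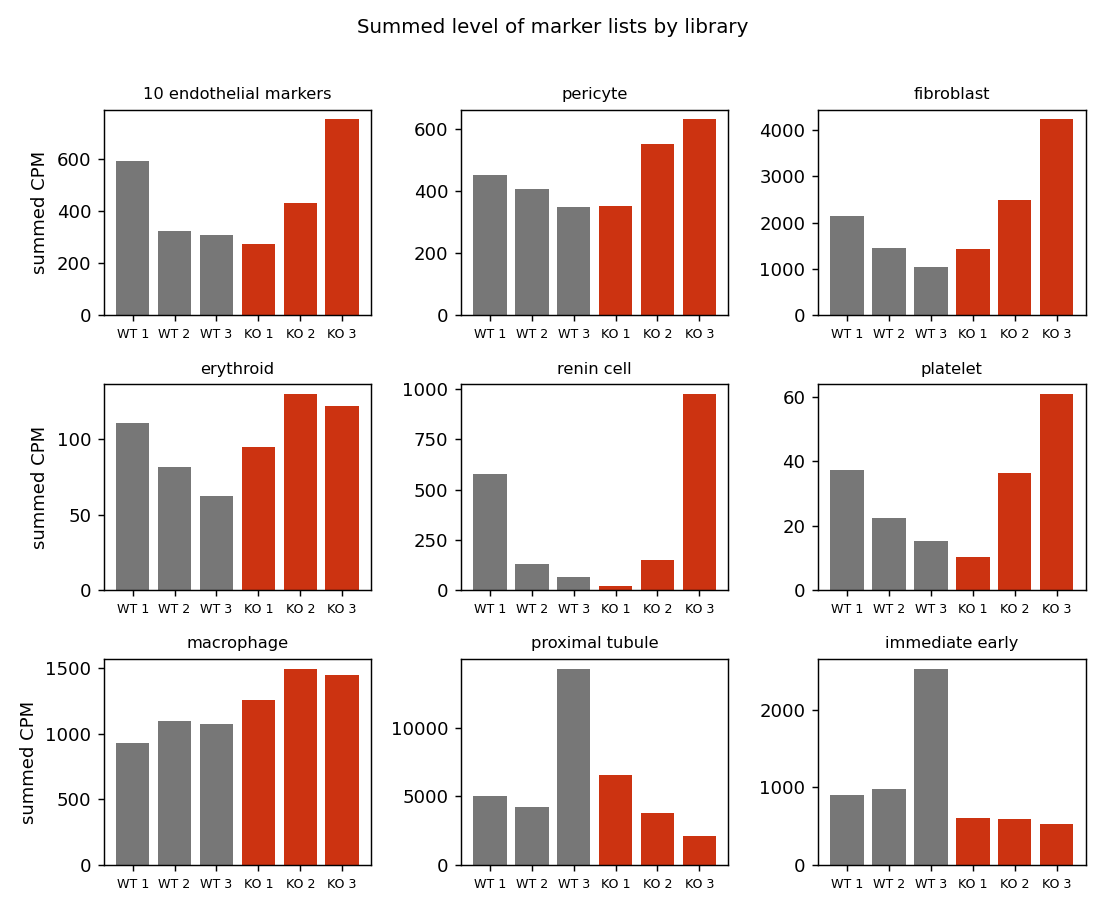
Bars give the summed CPM of each marker list in each library, grey for wild type and red for knockout. The endothelial, pericyte, fibroblast, renin cell and platelet sums are highest in KO 3 (the platelet sum through Pf4 alone), the proximal tubule sum is lowest there, and the immediate early sum is highest in WT 3.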

How the data were processed

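The table deposited by the authors gives raw, whole-number counts for each gene symbol in each of 6 libraries. Libraries were prepared from total RNA with an mRNA kit, per the labels' protocols. The submitters' processing notes list GRCm38 and mm10, names of the same build. Which aligner, counter and strand setting were used is not given in the sources used here, so overlapping or antisense genes may share counts. The knockout columns carry the parts of the library name in another order and were matched by those parts and the number.

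Counts were filtered with filterByExpr, which kept 99.96% of them, scaled by TMM and tested in edgeR 4.0.16 by its quasi-likelihood F test (robust fitting, group as the only term) in R 4.3.3, with Benjamini-Hochberg adjustment over all 18927 genes and a threshold of 0.05. Each SE is the fold change (log2) over the root of F. Log2 CPM used a prior count of 2. Levels per kilobase used the merged exons of GENCODE M21. The fit was checked on simulated counts. Alternatives were other scalings and filters, DESeq2 1.42.0, limma-voom (limma 3.58.1), a replicate block, removal of a transcript length trend, and left-out libraries. No pair of libraries of a group was a copy (chi-square per degree of freedom 47.6 or more).

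The 39 genes, their classes and the marker lists were chosen with earlier results of these data known. All 39 could be named, and of each other list the 3 with the smallest p that reached a mean of 1 CPM in either group; Ackr1 and the makeup of the marker lists fall outside this rule. The podocyte list is not reported as a whole here.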

Additional observations from a re-analysis of the deposited data

How the results depend on the processing

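All 39 endothelial genes stayed short of an adjusted p of 0.05 under each of the 17 alternatives, the smallest being 0.211 with the DESeq2 Wald test. Over all genes, 0 were higher and 0 lower with the settings used in the text, 34 higher and 28 lower with DESeq2, 1 higher and 2 lower with limma-voom, 1 higher and 1 lower with no filter, 1 higher with the replicate block and 1 higher with both libraries numbered 3 left out. With 1 library left out, 0 to 1 were higher and 0 lower. The median of the members ran from -0.18 to 0.43 with 1 library left out and from 0.13 to 0.19 under the other settings that kept all 6 libraries. Many members lay near 0 and changed sign, and the cause was not tested. Log2 fold changes with 1 library left out ran as follows, from lowest to highest, for the 25 members that changed sign: Cdh5 -0.0046 to 1.04, Tie1 -0.23 to 0.79, Egfl7 -0.66 to 0.25, Esam -0.55 to 0.38, Robo4 -0.44 to 0.24, Icam2 -0.31 to 0.79, Cldn5 -0.63 to 0.045, Ramp2 -0.64 to 0.13, Nos3 -0.54 to 0.65, Erg -0.18 to 0.43, Sox7 -0.29 to 0.65, Sox18 -0.84 to 0.81, Klf2 -0.61 to 0.14, Klf4 -0.29 to 0.30, Tal1 -0.55 to 0.38, Fli1 -0.17 to 0.10, Emcn -0.41 to 0.57, Plvap -0.027 to 0.63, Apln -0.39 to 0.94, Gja4 -0.76 to 0.47, Gja5 -0.52 to 0.34, Sema3g -0.12 to 0.11, Aplnr -0.18 to 1.46, Vwf -0.18 to 0.52 and Prox1 -0.63 to 0.087. With both libraries numbered 3 left out the members that changed sign were Pecam1 -0.0055, Cdh5 -0.25, Tie1 -0.46, Eng -0.033, Icam2 -0.41, S1pr1 -0.022, Mmrn2 -0.059, Adgrl4 -0.025, Ptprb -0.034, Nos3 -0.77, Erg -0.37, Sox7 -0.54, Sox18 -1.12, Klf4 0.15, Emcn -0.57, Plvap -0.17, Apln -0.44, Gja4 -0.94, Gja5 -0.74, Efnb2 -0.024 and Aplnr -0.40. With limma-voom they were Robo4 0.064, Klf2 0.061, Klf4 0.016, Fli1 0.046, Gja4 -0.20, Gja5 -0.20 and Sema3g 0.0032, and with the length trend removed Esam 0.053, Ptprb -0.013 and Gja5 -0.0066. With upper-quartile factors they were Gja4 -0.0081 and Gja5 -0.0089, and with library size alone Gja4 -0.015 and Gja5 -0.016. With the replicate block they were Sox18 -0.010, Gja4 -0.12 and Gja5 -0.054. Whether libraries of the same number share more than a name could not be settled. The correlation of the deviations of same-numbered libraries was -0.282, 0.179 and -0.288, and only the libraries numbered 2 correlated best with their own number. The highest value, 0.37, was that of wild-type replicate 1 with knockout replicate 3. With 3 libraries per group the check cannot exclude shared handling by number. The rank of members by level per length moved for 33 of 39, by up to 11 places (Ramp2), when the longest transcript was taken as the length. Every member had at least 128 counts in each library, so counting error was small beside the spread between libraries.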
